A study of Caenorhabditis elegans with 2 samples.

Results

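The histone genes of Caenorhabditis elegans were examined here for peaks of the tagged zinc finger protein ZTF-29 in embryos. Members were all protein-coding genes of the reference annotation (WBcel235, the assembly also called ce11) whose symbol is his- followed by a digit, which gave 72 of 19985 protein-coding genes. The study used strain RW12283, in which a TY1, EGFP and 3xFLAG tag was inserted by CRISPR at the endogenous ztf-29 gene on chromosome III. Whole midembryonic worms came from egg bleaching, and the labels give their age as 0 hour. Chromatin was sonicated, precipitated with anti-GFP and sequenced at a fragment size of 200 to 800 bp (ChIP-seq). Both biological replicates belong to this single group and share the tagged strain, so no genotype, stage or treatment could be compared. Each embryo holds many cell types, and strong occupancy in few cells and weak occupancy in many cells cannot be told apart. A possible control experiment named in the labels was not analysed here.

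Histones are the proteins around which DNA is wound. H2A, H2B, H3 and H4 form the core of the nucleosome, and H1 binds the DNA that links one nucleosome to the next. Replication-dependent histone genes are copied many times in animal genomes and are transcribed in S phase, when new chromatin needs large amounts of histone, and their mRNAs typically end in a stem-loop. Variant H3.3 is also made outside S phase and is deposited into chromatin independently of replication.

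The members comprised 17 H2A, 17 H2B, 21 H3 and 16 H4 genes and the H1 gene his-24. The 16 H4 genes all encode 1 protein of 103 residues. The 17 H2A genes encode 3 distinct proteins, and 15 of these genes encode the same one. The 21 H3 genes encode 7 distinct proteins, with 15 genes sharing the commonest, and the 17 H2B genes encode 5, with at most 6 genes sharing one. Short his-39 (67 residues) was placed with H2B and short his-73 (46 residues) with H3 by their closest protein sequence. Of the 72 genes, 5 were classed as variant H3.3 (his-69, his-70, his-71, his-72 and his-74) and his-24 as linker histone. The remaining 66 were all classed as replication-dependent, without data on their expression in S phase. They include intron-bearing his-35, his-37, his-41 and his-57 and the short his-39 and his-73. An intron interrupts 8 of the 72 genes.

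Most histone genes stand head to head. The genes formed 31 divergent pairs with 228 to 369 bp from start to start (median 259 bp), and 10 further genes had a promoter of their own, which left 41 promoters to count. In all, 61 genes with 32 promoters lay in 11 clusters of 3 to 13 histone genes, 6 genes lay as neighbours with no further histone gene within 5000 bp, and 5 genes stood alone. A peak was assigned to a gene if its summit lay in the window that begins 500 bp before the annotated start and ends 100 bp after it. Starts are the annotated 5′ ends of the genes, not measured sites of initiation.

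Copies of the divergent promoters resemble each other closely. The DNA between the paired starts occurred as 21 distinct sequences among the 31 pairs, and 16 pairs had an exact copy elsewhere. The 5 sequences below include promoters with a listed peak, his-4/his-3 in every list and his-60/his-59 and his-6/his-5 in some lists. The others, his-20/his-19 and his-50/his-49, are relatives that had no candidate peak in any file. In these relatives 0% of the 36-base words of the whole promoter occur once in the genome. Whether the base differences bear on peak status was not tested. Each runs 5′ to 3′ from the base after the H2B or H4 start to the base before the H2A or H3 start, and capitals mark the TATA box word TATAAA on either strand. They were read from the RefSeq sequence of the assembly.
his-4/his-3, chrV:16040516-16040807, forward strand, H2B to H2A: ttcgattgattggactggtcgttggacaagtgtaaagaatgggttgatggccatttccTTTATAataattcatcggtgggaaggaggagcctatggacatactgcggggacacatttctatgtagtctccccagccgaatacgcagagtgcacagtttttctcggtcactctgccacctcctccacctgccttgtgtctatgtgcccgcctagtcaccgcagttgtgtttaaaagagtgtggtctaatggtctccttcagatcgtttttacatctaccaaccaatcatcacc
his-20/his-19, chrV:8895473-8895764, forward strand, H2B to H2A: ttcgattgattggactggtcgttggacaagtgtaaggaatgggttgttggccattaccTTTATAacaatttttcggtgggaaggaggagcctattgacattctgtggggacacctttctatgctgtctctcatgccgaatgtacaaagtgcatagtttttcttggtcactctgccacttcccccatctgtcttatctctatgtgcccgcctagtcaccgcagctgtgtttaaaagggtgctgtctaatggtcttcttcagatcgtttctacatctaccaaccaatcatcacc
his-60/his-59, chrIV:7487993-7488248, forward strand, H4 to H3: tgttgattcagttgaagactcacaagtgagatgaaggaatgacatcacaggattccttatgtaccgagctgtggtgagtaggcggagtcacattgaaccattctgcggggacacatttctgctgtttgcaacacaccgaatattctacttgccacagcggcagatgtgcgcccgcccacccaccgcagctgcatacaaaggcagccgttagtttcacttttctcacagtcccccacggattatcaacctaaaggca
his-6/his-5, chrV:8534978-8535213, reverse strand, H4 to H3: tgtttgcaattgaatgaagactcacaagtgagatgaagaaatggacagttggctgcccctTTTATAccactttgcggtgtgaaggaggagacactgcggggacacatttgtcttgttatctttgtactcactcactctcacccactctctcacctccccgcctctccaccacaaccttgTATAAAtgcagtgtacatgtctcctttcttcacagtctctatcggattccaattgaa
his-50/his-49, chrV:8847705-8847942, forward strand, H4 to H3: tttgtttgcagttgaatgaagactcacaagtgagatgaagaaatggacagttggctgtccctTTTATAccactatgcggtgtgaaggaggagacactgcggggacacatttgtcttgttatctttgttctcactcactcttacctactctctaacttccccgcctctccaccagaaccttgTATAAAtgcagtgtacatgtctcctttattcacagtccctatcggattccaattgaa

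The sequence of his-4/his-3 was 88.7% identical to that of his-20/his-19, which is repeated exactly at his-21/his-22, his-51/his-52 and his-54/his-53. The sequence of his-6/his-5 was 94.5% identical to that of his-50/his-49, which is repeated exactly at his-28/his-27. Promoter his-60/his-59 lacks TATAAA between its starts, and its closest relative, his-63/his-64, was 85.5% identical. The word GGGGACAC, taken up after the sequences had been read because it is the longest word that all 5 share, was present between the starts of 21 of the 31 pairs. On either strand, it occurred in 44 of 72 histone promoter windows (61.1%) and in 158 of the 19985 windows of all protein-coding genes (0.791%). Of these 158 windows, 114 belong to other genes. The choice of the word from histone promoters favours a high histone share, and the windows of paired genes overlap.

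A listed peak was found at 9 of the 72 histone genes in the conservative list (12.5%, 95% exact interval 5.88 to 22.4), where 1.49% of all protein-coding genes had one. Per the readme, this list and the full list each draw on the combined replicates, and they hold 814 and 1114 peaks. Each holds peaks whose irreproducible discovery rate (IDR), the expected share of peaks ranked as high that would not recur, was at most 0.01. The full list also held 9 histone genes, against 1.85% of all genes. Replicate 1 alone listed 11 histone genes (15.3%, 7.88 to 25.7), against 1.04% of all genes, and replicate 2 alone 8 (11.1%, 4.92 to 20.7), against 1.15%. Counted as promoters, 5 of 41 had a listed peak in the conservative list (12.2%, 4.08 to 26.2), against 1.33% of all protein-coding promoters with head-to-head genes counted once. The intervals cover counting error alone, and the members share promoters and sequence, so they are not independent draws. That histones stand high in these data was known when the members were chosen.

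Without regard to sequence uniqueness, candidates were somewhat more frequent than at other genes in the conservative file, but not over all files. The ranked files hold candidate peaks from before the IDR limit. They differ in content, since his-60/his-59 had a candidate in the conservative file and none in the full file. A missing candidate thus means no entry in a file. The conservative file had a candidate at 31 histone genes (43.1%), against 32.3% of all protein-coding genes. Of the 31 genes with a candidate 9 were listed, where 4.6% of all protein-coding genes with a candidate were. Over all files, 32 histone genes at 20 promoters had a candidate and 15 genes at 9 promoters were listed at least once. The remaining 40 genes at 21 promoters had no candidate in any file. The share of all protein-coding genes listed at least once was not counted, so the 15 genes have no like comparison. Of other protein-coding genes, 50.5% of the 19354 with at least 50% unique sequence in their window (defined below) had one in some file. Of the 559 others, 17.9% did. Without regard to uniqueness, the share of histone genes with a candidate over all files was thus not above that of other genes. Of the 29 histone genes with at least 50% unique sequence, 26 (89.7%) had a candidate in some file. Of the 43 histone genes with less, 6 (14.0%) did. The signal is the authors' value for each peak, whose scale is not stated, so ranks are given within a list and never across lists. Read depth is unknown.

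**Figure D1:**
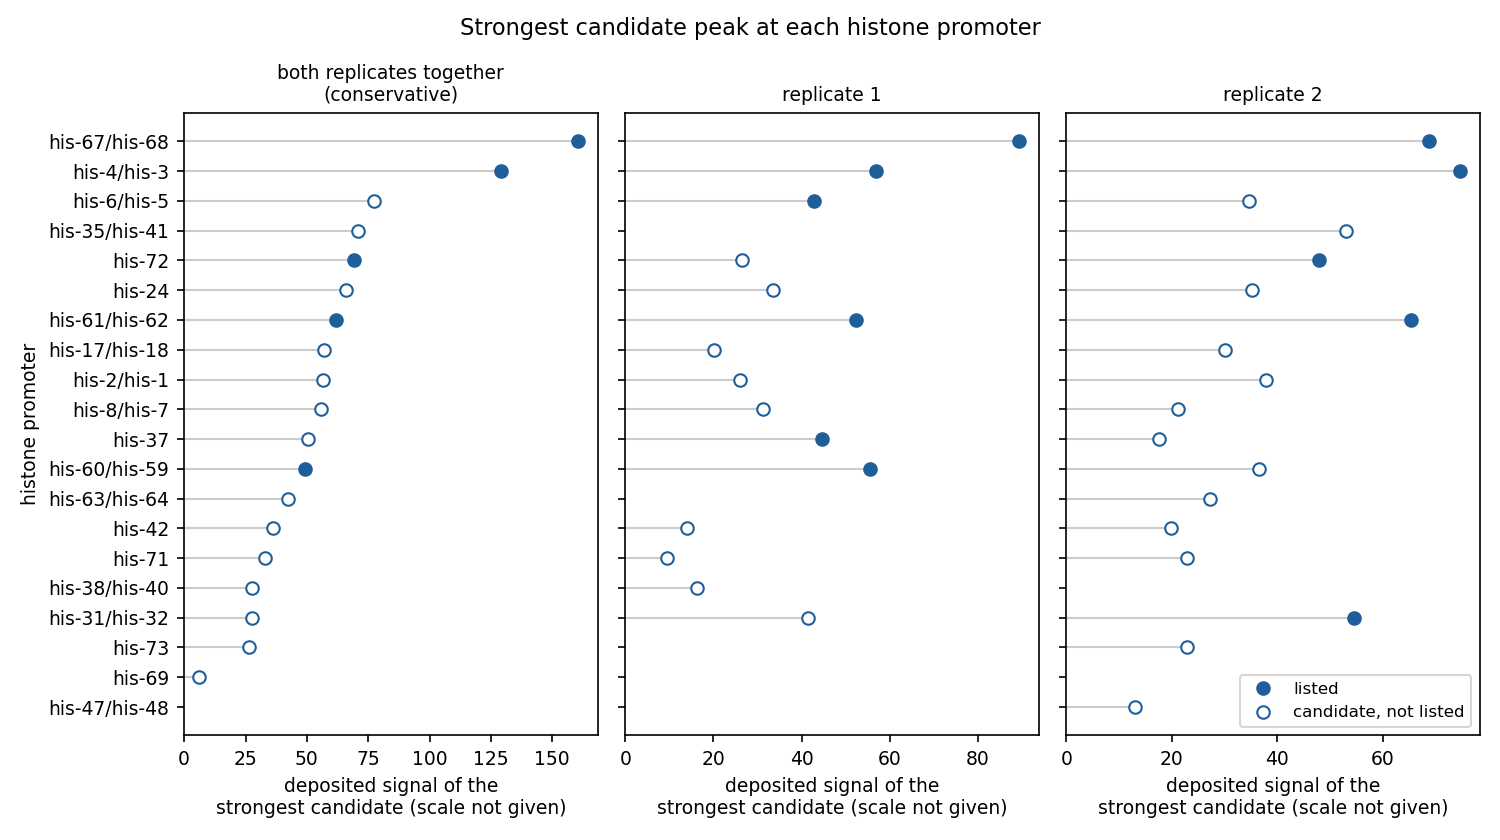
Deposited signal (x axis, scale not given) of the strongest candidate at each of the 20 histone promoters with a candidate in any file, for both replicates together and for each replicate, with filled points for listed peaks and open points for candidates that are not listed. Promoters his-67/his-68 and his-4/his-3 were the 2 strongest for both replicates together and in each replicate, and his-47/his-48 had a candidate in replicate 2 alone.

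The strongest histone peak for both replicates together and in replicate 1 lay between his-67, an H4 gene, and his-68, an H2A gene, a divergent pair on chromosome I. The conservative peak spans 9988835 to 9989110 with its summit at 9988973, 210 bp upstream of his-67 and 159 bp upstream of his-68. Its signal was 160.5 for both replicates together (rank 155 of 814), 89.3 in replicate 1 (rank 63 of 466) and 68.8 in replicate 2 (rank 401 of 802). All 4 lists held this peak, and the 3 distinct summits were at 9988950, 9988973 and 9988979, in intergenic sequence.

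The histone peak that came second there and first in replicate 2 lay between his-4, an H2B gene, and his-3, an H2A gene, on chromosome V, in the first of the sequences printed above. It spans 16040452 to 16040727 with its summit at 16040590, 75 bp upstream of his-4 and 218 bp upstream of his-3. The signal was 129.0 for both replicates together (rank 255 of 814), 56.8 in replicate 1 (rank 192 of 466) and 74.7 in replicate 2 (rank 344 of 802). It was in all 4 lists, and its summit moved between replicates, from 62 bp upstream of the his-4 start in replicate 1 to 18 bp inside the his-4 coding sequence in replicate 2. All of these summits also lay in an exon of T10C6.19, an annotated non-coding RNA gene that overlaps the promoter.

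A cluster of 4 genes on chromosome IV carried listed peaks at both of its promoters. At his-61 (H2A) and his-62 (H2B), 3 overlapping peaks of the conservative list had signals of 61.7, 32.1 and 24.0 (ranks 775, 789 and 793 of 814). Their summits at 7486194, 7486439 and 7486642 lay in the his-61 coding sequence, between the starts, and in the his-62 coding sequence, and their IDR was 0.000542, 0.00404 and 0.00407. The weaker pair ranked 16855 and 31181 by signal among the 54900 candidates of the conservative file. Replicate 1 listed a single peak between the starts (52.4, summit 7486409), and replicate 2 a single peak 54 bp into his-61 (65.4, summit 7486163). In the full ranked file the IDR of the same 3 peaks was 0.0304, 0.0292 and 0.0291, and none of them was in the full list.

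The neighbouring promoter of his-60 (H4) and his-59 (H3) had a conservative peak from 7488012 to 7488287, summit 7488150, 158 bp upstream of his-60 and 99 bp upstream of his-59. It had a signal of 49.1, rank 783 of 814, and an IDR of 0.00651. Replicate 1 listed the peak (55.6, rank 198 of 466, summit 7488156). The strongest candidate of replicate 2 there (36.5, IDR 0.144) was not listed and had its summit at 7488304, inside his-59. The full file held no candidate at this promoter.

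Of the variant H3.3 genes, his-72 had a listed peak. It spans 12368840 to 12369115 of chromosome III, with its summit at 12368978, 72 bp downstream of the start, in an intron. The signal was 69.1 for both replicates together (rank 753 of 814 in the conservative list, IDR 0.00917). Replicate 2 listed the peak (47.9, rank 761 of 802, IDR 0.00563), whereas replicate 1 had a candidate of 26.5 with an IDR of 0.227. The snoRNA gene Y49E10.36 lay 434 bp from the summit. The other H3.3 genes had no listed peak in their windows. At his-71 the conservative candidate had a signal of 33.0 (IDR 0.733), with 9.41 in replicate 1 (IDR 0.939) and 22.8 in replicate 2 (IDR 0.907), and at his-69 it had 6.21 (IDR 0.58) and none in either replicate. Genes his-70 and his-74 had no candidate in any file, although the full list and replicate 2 each held a peak outside the window of his-70, 950 and 984 bp upstream with signals of 51.4 and 45.8.

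Linker gene his-24 had a candidate in each file, and none was listed. The signal was 65.9 for both replicates together, 24 bp upstream of the start, with an IDR of 0.0136 in the conservative and 0.0505 in the full file. It was 33.6 in replicate 1 (IDR 0.0771) and 35.2 in replicate 2 (IDR 0.783).

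Other promoters were listed in the full list or in a single replicate. His-6 (H3) and his-5 (H4) on chromosome V had a peak from 8534952 to 8535227, summit 8535090, about midway between the starts. Its signal was 77.5, in the full list at rank 772 of 1114 with an IDR of 0.00215, and not in the conservative list, where its IDR was 0.0116. Replicate 1 listed it (42.9, rank 370 of 466), and replicate 2 had an unlisted candidate (34.6, IDR 0.0489).

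The intron-bearing genes his-35 (H2A) and his-41 (H2B) had a peak in the full list, from 9545382 to 9545657, summit 9545520, 232 bp upstream of his-35 and 16 bp upstream of his-41. Its signal was 70.9 (rank 897 of 1114), and its IDR was 0.00435 in the full and 0.0231 in the conservative file. Replicate 2 had an unlisted candidate there (53.1, IDR 0.0292) and replicate 1 none. The adjacent H4 gene his-37, also with an intron, was listed in replicate 1 (44.7, rank 334 of 466, 99 bp upstream of the start). In replicate 2 his-37 had a candidate of 17.7 (IDR 0.907), 377 bp upstream.

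The H4 gene his-31 was listed in replicate 2 (54.6, rank 660 of 802), with the summit 488 bp upstream, close to the edge of the window and inside the coding sequence of its divergent partner, the H3 gene his-32. The full list held a peak with a signal of 67.1 in the same place, 584 bp upstream of his-31 and so outside its window. Replicate 1 had an unlisted candidate between these starts, 107 bp upstream of his-31 (41.3, IDR 0.448).

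Further unlisted candidates were of similar strength to listed ones. Divergent pair his-17/his-18 (H3 and H4) had a signal of 57.2 with an IDR of 0.124 in the conservative file, and his-2/his-1 (H3 and H4) had 56.6 with an IDR of 0.0284. Signal and IDR ordered the histone candidates differently, since his-60/his-59 was listed with a signal of 49.1. The conservative and full lists held the same 3 promoters out of 5 each (60% of each list). They were his-67/his-68, his-4/his-3 and his-72, and his-61/his-62 and his-60/his-59 in the conservative list were replaced by his-6/his-5 and his-35/his-41 in the full list. Over all protein-coding promoters, 91.3% of the 242 listed in the conservative list were also in the full list, and 72.5% of the 305 listed in the full list were in the conservative one.

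Both replicates listed 3 histone promoters, his-67/his-68, his-4/his-3 and his-61/his-62, which are 50% of the 6 of replicate 1 and 60% of the 5 of replicate 2. Replicate 1 alone listed his-60/his-59, his-6/his-5 and his-37, and replicate 2 alone his-72 and his-31/his-32. By overlap of at least 1 bp, 3 of the 6 histone peaks of replicate 1 were listed in replicate 2, and 2 had a summit within 100 bp. Over all peaks, 68.9% of the 466 of replicate 1 overlapped a listed peak of replicate 2, and 67.4% had a summit within 100 bp. Over all protein-coding promoters, 60.6% of those listed in replicate 1 were listed in replicate 2, and 52.9% the other way. A candidate was present in both replicates at 14 of the 41 histone promoters. The share of all protein-coding promoters with a candidate in both replicates was not counted, so this count has no comparison.

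The histone types were listed at similar counts. In the conservative list 3 of 17 H2A genes (17.6%, 95% exact interval 3.8 to 43.4), 2 of 17 H2B genes (11.8%, 1.46 to 36.4), 2 of 21 H3 genes (9.52%, 1.17 to 30.4) and 2 of 16 H4 genes (12.5%, 1.55 to 38.3) had a listed peak. Of all protein-coding genes, 1.49% had a listed peak in that list. The intervals of the types overlap broadly, and since paired genes share a peak the types were not separate observations. The full list had the same counts by type. H4 had 4 listed genes in replicate 1 (his-5, his-37, his-60 and his-67) and 2 in replicate 2, while H3 had 2 and 1. Candidates were more frequent at H3 (12 of 21) and H4 genes (9 of 16) than at H2A (5 of 17) and H2B genes (4 of 17) in the conservative file, where 32.3% of all protein-coding genes had one. The H2A (29.4%) and H2B (23.5%) shares lay below that value. This difference between types was not tested, because copies share sequence.

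Cluster promoters and the promoters of isolated genes had listed peaks at shares with overlapping intervals. In the conservative list 3 of 32 cluster promoters (9.38%, 95% exact interval 1.98 to 25.02) and 2 of 9 promoters of pairs and single genes (22.2%, 2.81 to 60.01) had a listed peak. Of all protein-coding promoters, 1.33% had a listed peak in that list. Replicate 1 had 5 of 32 and 1 of 9, and replicate 2 had 3 of 32 and 2 of 9, so the order of the shares turned between replicates. Candidates in the conservative file covered 12 of the 32 cluster promoters (37.5%) and 7 of the 9 others (77.8%), where 31.9% of all protein-coding promoters had one.

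The same held for replication-dependent and variant genes. The conservative list held 4 of 35 replication-dependent promoters (11.4%, 3.2 to 26.7) and 1 of 5 H3.3 promoters (20%, 0.505 to 71.6). It held 1.33% of all protein-coding promoters. Replicate 1 listed 6 and 0, and replicate 2 listed 4 and 1. For the H3.3 promoters these counts rest on his-72, and 0 of 5 in replicate 1 allows a share of up to 52.2%.

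**Figure D2:**
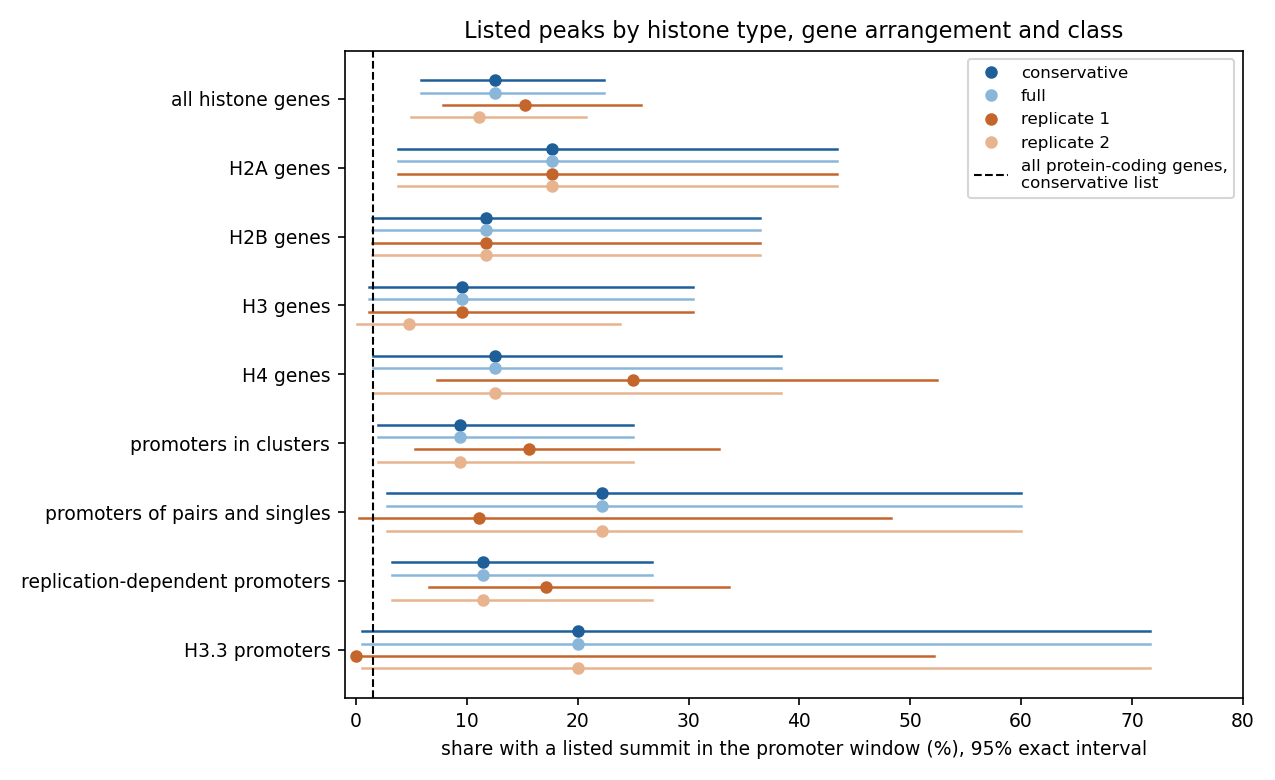
Share of histone genes or promoters with a listed summit in the window (x axis, %), by type, gene arrangement and class, for each of the 4 lists; points are shares, bars are 95% exact intervals for counting error, and the dashed line is the conservative share of all protein-coding genes, 1.49%. The intervals of types and classes overlap in every list, and the share of all histone genes lay between 11.1% and 15.3%.

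The window limits how far a summit can lie from a start, and each summit at a divergent pair counts for both genes. Within these limits the median distance was 158 bp upstream over 13 combinations of gene and summit in the conservative list, 124 bp upstream over 9 in the full list, 136 bp over 11 in replicate 1 and 184.5 bp over 8 in replicate 2. Among summits at divergent pairs, 4 of 6 lay between the starts in the conservative list, 4 of 4 in the full list, 5 of 5 in replicate 1 and 1 of 4 in replicate 2. Of the 6 conservative summits, 3 belong to the overlapping peaks at his-61/his-62, each counted for both genes in the median. The replicate 2 summits at his-61, his-31/his-32 and his-4 fell inside coding sequences. Of the 23 listed histone peaks counted over the 4 lists, 0 had a summit within 200 bp of an annotated tRNA, snoRNA or snRNA gene. The 3 within 1000 bp of a snoRNA gene were all at his-72. These 23 peaks lie at 9 promoters, several of them counted in more than 1 list. The share of all listed peaks that lie near such genes was not counted, so the 0 has no comparison.

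**Figure D3:**
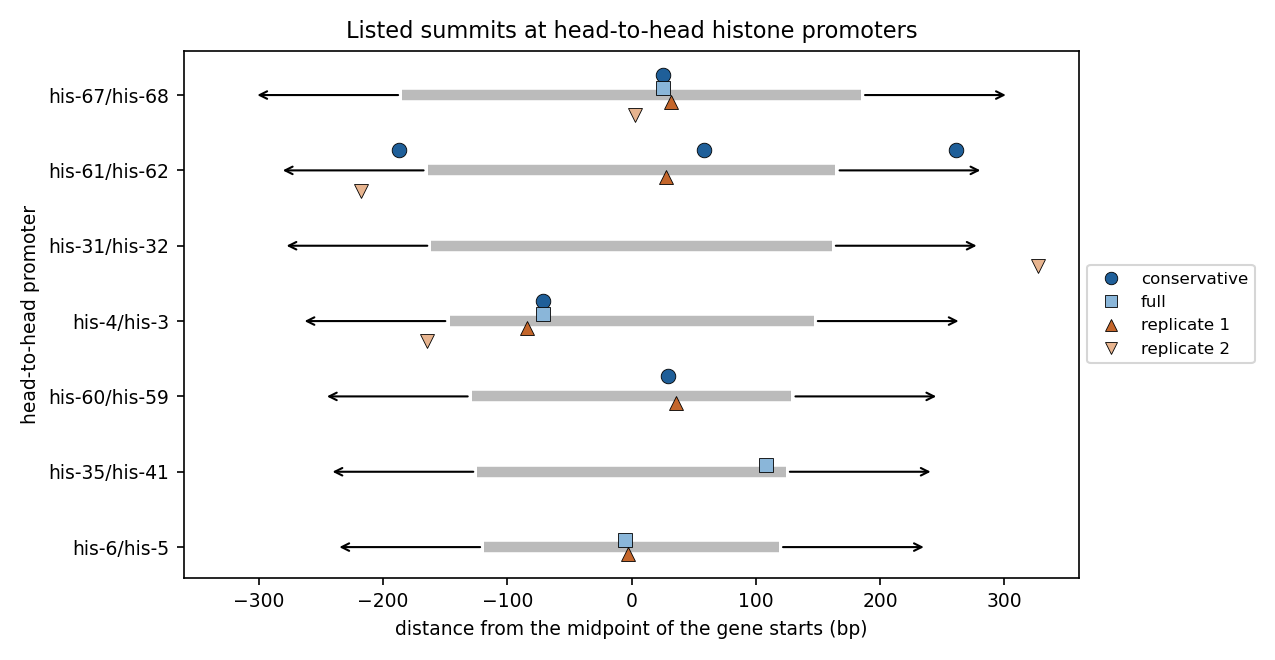
Listed summits at the 7 head-to-head histone promoters with a listed peak, as distance in bp from the midpoint of the paired starts (x axis); grey bars span start to start, arrows point into the genes, and symbols mark the 4 lists. In replicate 1 all 5 summits lie between the starts, and in replicate 2 1 of 4 does.

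Words with known roles were searched on both strands in the windows and within 50 bp of each listed summit. TATAAA was present in 76.4% of histone windows and 58.1% of all protein-coding windows, and CCAAT in 88.9% and 71.8%. GAGAGA was present in 45.8% and 33.9%. Windows of paired genes overlap and 16 of the 31 pairs have an exact copy between their starts, so the 72 histone windows are not separate observations. The tRNA B box core GGTTCGA was in 1 of 72 histone windows (1.39%) and 3.34% of all windows, and 2 copies in a row of the telomere repeat word TTAGGC were in 0 histone windows and 0.655% of all windows. Near the 7 conservative summits, TATAAA occurred at 2 (his-72 and his-4/his-3), GAGAGA at 1 (his-67/his-68), and none of the other words at any of them. GGGGACAC lay near 2 of these 7. It was between the starts of 5 of the 7 listed pairs and of 14 of the 18 pairs without a candidate. Its choice fixed its presence at the 5 printed pairs and at their exact copies. These counts therefore cannot compare listed pairs with pairs without a candidate.

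The promoters without a candidate were repeated sequence for the most part. Uniqueness was measured as the share of 36-base words in a promoter that occur once in the genome, on either strand. Of the 21 promoters with no candidate in any file, 16 had no unique word at all. The 3 with at least 50% unique words were his-39 (80.6%), his-70 (100%) and his-74 (100%). The 11 promoters with a candidate that was never listed had a median of 80.6% (lowest 0.152%), and the 9 promoters listed in any list had a median of 85.1% and a lowest value of 50.2%. Neither the read length nor the treatment of reads with several matches is stated, and the part of repeated sequence in these counts was not tested.

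**Figure D4:**
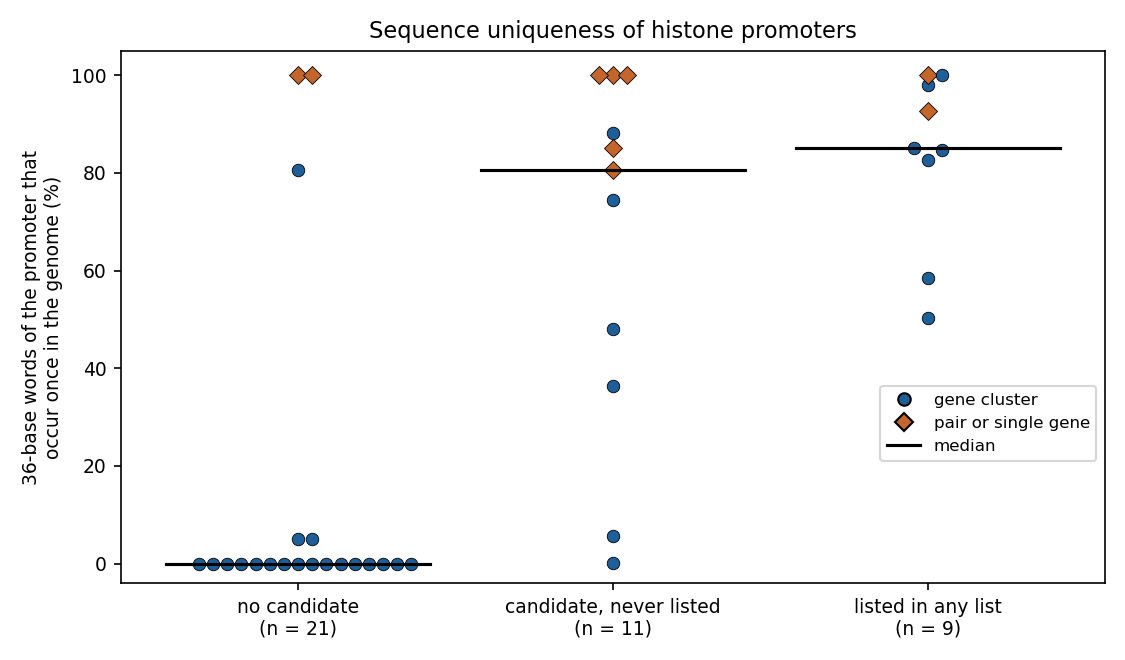
Share of 36-base words that occur once in the genome (y axis, %) for each of the 41 histone promoters, in groups by peak status, with circles for gene clusters, diamonds for pairs or single genes and lines for medians. The 9 listed promoters sit between 50.2% and 100%, whereas 16 of the 21 without a candidate sit at 0.

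Arrangement and uniqueness went together. Cluster promoters had a median of 0.0758% unique words, with 16 of 32 at 0, whereas the 9 promoters of pairs and single genes had 80.6% to 100%. Replication-dependent promoters had a median of 5.09%, and the 5 H3.3 promoters all had 100%. Among promoters with no candidate, 19 of 21 were in clusters. Similarity between copies showed the same order, since the DNA between paired starts had a closest relative of the same types with a median identity of 100% for the 18 pairs without a candidate (92.8% to 100%) and 94.3% for the 6 with a candidate that was never listed. It was 82.4% for 6 of the 7 listed pairs (50.4% to 94.9%), and his-67/his-68 has no other pair of its types.

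Members were next set against other genes at like uniqueness, with a limit of 50% chosen after the values were seen. Of the 29 histone genes with at least 50% unique words in their window, 26 had a candidate in the conservative file (89.7%) and 9 a listed peak (31.03%). Of 19354 other protein-coding genes at that level, 32.8% had a candidate and 1.46% a listed peak. Of 34 histone genes with under 1% unique words, 0 had a conservative candidate, as did 1 of 205 other such genes. Over all windows with under 50% unique words, 5 of 43 histone genes (11.6%) and 11.4% of 559 other genes had a conservative candidate. The conservative list held 0 of the 43 and 1.07% of the others. Gene his-6, with 45.6% unique words in its window, was listed in the full list and in replicate 1. The 5 conservative histone promoters were all among those with at least 50%.

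Genes that work with the histones had listed peaks at 3 of 30 in the conservative list (10%). Among 11 other histone genes, hil-7, a linker histone gene, was listed in the conservative list (77.2, summit 16 bp downstream of the start), the full list and replicate 1. Linker histone gene hil-5 was listed in the full list and replicate 2, and hil-3 in replicate 2. No peak was listed at htz-1, which encodes H2A.Z, or at hcp-3, which encodes the centromeric H3. Among 14 histone chaperone genes, unc-85, which encodes an ASF1 chaperone of H3 and H4, was listed in all 4 lists (158.1 for both replicates together, summit 329 bp upstream). The gene chaf-2, for a subunit of chromatin assembly factor 1, was listed in the conservative and full lists (74.2, 181 bp upstream) and in neither replicate. Of 5 genes for 3′ processing of histone mRNA that could be matched, among them cdl-1 for the stem-loop binding protein, 0 were listed in any list. The shares of these lists, 1 of 11, 2 of 14 and 0 of 5 in the conservative list, stand beside the 1.49% of all protein-coding genes.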

How the data were processed

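The labels give 2 biological replicates of a single group, each with technical replicate 1. The deposited files are peak lists on ce11. The authors' signal per peak has no stated scale, and the deposited score is the IDR scaled to at most 1000. Ranked files add another deposited score, the global IDR as minus log10, which reaches 5. The sources used here name no aligner, peak caller, read length or depth. Each list was used as deposited, and signals were ranked within a list.

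Genes and starts came from Ensembl release 115, and symbols from RefSeq by WormBase identifier (72 of 72 matched), since Ensembl names collapse copies to 50 names. The gene's 5′ end was the start. Head-to-head starts at most 1000 bp apart shared a promoter, and 3 or more histone genes with gaps of at most 5000 bp formed a cluster. Types followed RefSeq product names. Shares have exact Clopper-Pearson intervals at 95%. With 1 group and members that share sequence, no test was made. Words of 36 and 50 bases were counted over the genome on both strands. Identity came from global alignment. Window assignment and word counting were tested on simulated data.

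The members, gene lists and words were chosen with earlier results of these data known. The text names histone genes with a listed peak in any list, those with the 5 strongest unlisted conservative candidates, all H3.3 genes, his-24 and listed members of the gene lists; others named were chosen after their values were seen. Alternatives were other lists, windows, peak rules, groupings and the uniqueness limit. The software was biopython 1.88, scipy 1.17.1, matplotlib 3.10.9, pandas 2.3.3 and numpy 2.4.6 under Python 3.11.15.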

Additional observations from a re-analysis of the deposited data

How the results depend on the processing

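Of 90 values under the alternatives, 81 stayed within 1.5 times of the reported count or, for the median distance, within the SD of the replicate medians (34.3 bp). Some of these could barely move. Every listed promoter passes the uniqueness limit, which was set after its values were seen, and taking candidates within the IDR limit repeats the limit of the lists. Of the 940 conservative candidates within that limit 814 were listed, and 0 of the unlisted ones lay in a histone window. What left the unlisted ones out was not tested. An equal count can also hide an exchange of members: the conservative and full lists held 9 genes each and shared 5. Among the better-ranked 407 of the 814 conservative peaks by signal, 4 histone genes and 2 promoters were listed, his-67/his-68 and his-4/his-3, in place of 9 and 5. With a single replicate's list, cluster promoters counted 3 to 5, promoters of pairs and single genes 1 to 2, H3.3 promoters 0 to 1, H3 genes 1 to 2 and H4 genes 2 to 4. With 2 or more genes taken as a cluster, single promoters counted 1 in place of 2. A window of 200 bp upstream to 100 bp downstream left 1 H4 gene in place of 2. Depth is unknown, so a missing peak does not show absence of binding. No paired analysis was possible because the samples form a single group. The cause of each change was not tested, beyond the smaller list or window itself.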
